A study of Caenorhabditis elegans with 2 samples.

Results

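The 6 genes described here encode transcription factors of the ETS, PBX and Meis classes, treated as known or candidate partners of the homeodomain protein CEH-43 in Caenorhabditis elegans. They are ast-1, ceh-20, ceh-40, ceh-60, unc-62 and psa-3, taken by name out of 19985 protein-coding genes. The rule uses no measured value, though the list was drawn up with earlier results of these data known. A summit, the position of highest signal in a peak, was taken as in reach of a gene when it lay inside the gene or at most 5000 bp from one of its annotated start sites. By that rule 1 summit of the authors' thresholded list was in reach of a member, 42 of the relaxed list drawn from both replicates, 46 of the relaxed list of replicate 1 and 37 of that of replicate 2.

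CEH-43 was mapped by chromatin immunoprecipitation with sequencing (ChIP-seq) in embryos of strain OP699, which carries the unc-119(tm4063) mutation and the transgene wgIs699, holding ceh-43::TY1::EGFP::3xFLAG and a wild-type unc-119(+) gene as rescue. Both libraries, 2 biological replicates of this 1 group, came from embryos of mixed stage and mixed sex obtained by bleaching, with a stated age of 3 hours, and an antibody to the fluorescent protein was used. The signal is that of a tagged protein from a transgene in whole embryos, so a site used in few cells and a site used weakly in many cannot be told apart. With 1 group of 2 replicates and no read counts there is no test over samples, so ranks, counts and positions are given beside the same over all genes or all summits, and read depth is unknown.

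AST-1 is an ETS-domain factor that acts in dopamine neurons as a terminal selector, a factor that switches on the genes of a neuron's final identity, and it does so together with CEH-43 and CEH-20. PBX proteins (CEH-20, CEH-40 and CEH-60 in the worm) carry a homeodomain of the three-amino-acid-loop (TALE) class and bind DNA with Hox and other homeodomain partners. Meis proteins (UNC-62 and PSA-3) bind PBX proteins, and in flies the Meis protein Homothorax carries the PBX protein Extradenticle into the nucleus. The question for each gene was whether CEH-43 itself was measured at its locus.

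The summits that carry the description are shown as sequence, 101 bases centred on the summit, forward strand of WBcel235 (the same assembly as ce11) from its RefSeq copy. Capitals mark TAATTA or TAATTG, the homeodomain core, and words for the partner classes, TGATNNAT (PBX with Hox), TGACAG (Meis) and CCGGAA (ETS), each searched on both strands and wholly within 50 bp of the summit. TAATTA reads the same on both strands, TAATTG is CAATTA on the other, and a match is a description of the letters, not a site. The set holds the strongest pooled summit of ast-1, ceh-20, ceh-40, unc-62 and psa-3, both other intron summits of ast-1, and, for ceh-60, its strongest summit in replicate 1.
ast-1, pooled rank 690, chrII:4130410-4130510: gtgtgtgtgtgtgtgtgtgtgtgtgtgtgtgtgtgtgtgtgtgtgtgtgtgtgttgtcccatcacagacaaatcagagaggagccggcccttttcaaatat
ast-1, pooled rank 4404, chrII:4132258-4132358: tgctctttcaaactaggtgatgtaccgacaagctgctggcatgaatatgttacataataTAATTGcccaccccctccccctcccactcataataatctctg
ast-1, pooled rank 4935, chrII:4131347-4131447: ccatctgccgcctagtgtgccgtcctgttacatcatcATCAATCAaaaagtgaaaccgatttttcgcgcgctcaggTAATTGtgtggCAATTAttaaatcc
ceh-20, pooled rank 3782, chrIII:6979110-6979210: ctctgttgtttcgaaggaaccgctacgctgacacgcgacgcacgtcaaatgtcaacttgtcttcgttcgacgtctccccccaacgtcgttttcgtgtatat
ceh-40, pooled rank 7789, chrX:12320799-12320899: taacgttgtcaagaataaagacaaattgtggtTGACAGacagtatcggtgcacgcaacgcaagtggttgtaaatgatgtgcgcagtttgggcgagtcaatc
unc-62, pooled rank 2220, chrV:4493899-4493999: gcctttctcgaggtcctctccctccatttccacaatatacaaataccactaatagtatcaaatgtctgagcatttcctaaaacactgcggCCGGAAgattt
psa-3, pooled rank 9285, chrX:15418210-15418310: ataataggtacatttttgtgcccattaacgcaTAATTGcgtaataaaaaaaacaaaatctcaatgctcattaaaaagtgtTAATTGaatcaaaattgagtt
ceh-60, replicate 1 rank 14133, chrX:6531537-6531637: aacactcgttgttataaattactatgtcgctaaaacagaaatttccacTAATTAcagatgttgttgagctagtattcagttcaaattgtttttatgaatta

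The genes differed widely in how much CEH-43 signal lay at them. Of the 6 members, ast-1 alone had a summit in the thresholded list, and 10.2% of all protein-coding genes had one by the same rule, so the count of 1 of 6 is near that background. In the pooled relaxed list 5 of 6 had a summit in reach (85.2% of all genes), in replicate 1 all 6 (87.6%) and in replicate 2 again 5 (86.1%). Among the strongest 3000 of the 30000 pooled summits, 2 of 6 members had one (ast-1 and unc-62), against 25.3% of genes. The relaxed lists include background by the authors' own description, so a summit there is a position of locally highest signal and not a called site.

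**Figure D1:**
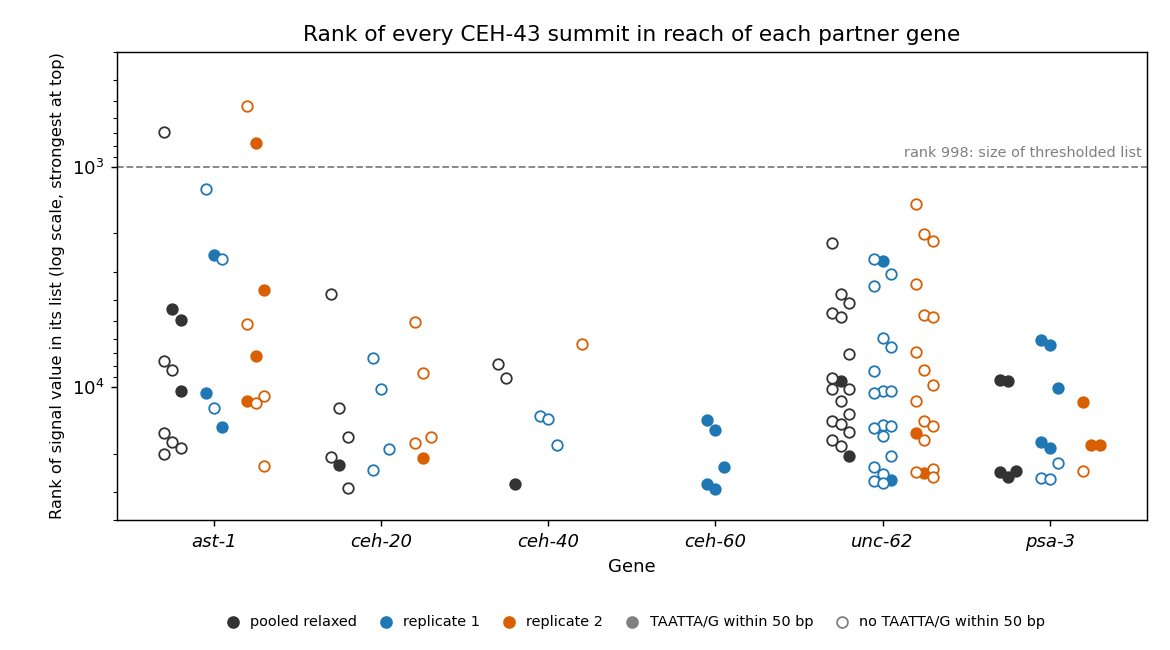
Rank of every summit in reach of each gene (y axis, log scale, strongest at the top) in the pooled relaxed list and in each replicate, 1 point per summit, filled where TAATTA or TAATTG lies within 50 bp. Only ast-1 has points above the dashed line at rank 998, the size of the thresholded list, and ceh-60 has points in replicate 1 alone.

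The ETS gene ast-1 (WBGene00020368, chrII:4127837-4135359, reverse strand, 1 annotated transcript) had the strongest summit of the 6. It lay in intron 5, 4899 bp downstream of the start site, at chrII:4130460 in a peak from 4130232 to 4130687, with a signal value of 163 and rank 690 in both the thresholded and the pooled relaxed list. In replicate 1 the matching summit had a signal value of 65.2 and rank 1262 of 29979, and in replicate 2 a signal value of 97.1 and rank 528 of 26127. Signal values are the authors' own, their scale is not stated in the sources used here, and they are compared within a list only. Both replicates placed the summit within 5 bp of the pooled one, and replicate 2 ranked it higher. Taken alone, the strongest 998 summits of replicate 1 held none in reach of any member, and those of replicate 2 held 2, both in this intron.

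The sequence at this ast-1 site is a dinucleotide repeat. An unbroken run of GT units, 199 bp long, covers chrII:4130265-4130463, and the pooled summit lies 3 bp inside its end. The second ast-1 summit of replicate 2, at 4130242 with a signal value of 84.7 and rank 778, lies 23 bp beyond the other end of the run, so the summits of replicate 2 stand on either side of the repeat. Runs of 10 or more GT units, a feature looked for after this sequence was seen, were within 50 bp of 1.2% of thresholded summits (12 of 998) and 0.203% of pooled relaxed summits (61 of 30000). Without summits at such runs, the thresholded list had 0 in reach of a member. How reads were placed in the repeat is not stated in the sources used here, and the part of the repeat in this peak was not tested. The pooled summit had neither the homeodomain core nor any of the partner words within 50 bp, and the nearest core lay 131 bp away, while the replicate 2 summit at 4130242 had one within 50 bp. In the thresholded list as a whole, 32.6% of summits had the core within 50 bp.

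The core word was at other, weaker summits of ast-1. In the same intron the summit at chrII:4132308, 3051 bp downstream of the start site, had a signal value of 83.5 and pooled rank 4404, with TAATTG beginning 9 bp from the summit. It ranked 2514 in replicate 1, and replicate 2 had its nearest summit 140 bp away, beyond the 100 bp taken as a match, at rank 3617. The summit at chrII:4131397, 3962 bp downstream, had pooled rank 4935 and ranks of 10642 and 11478 in replicates 1 and 2. It holds a pair of core words, beginning 26 and 37 bp from the summit, and ATCAATCA, the reverse strand of the PBX-type word. In all, 3 of the 10 pooled ast-1 summits had the core, 5 lay upstream of the gene (pooled ranks from 7590 to 20164), 3 in intron 5 and 2 in coding exons. Only 2 of the 10, the repeat site and that at 4131397, were found in both replicates within 100 bp.

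**Figure D2:**
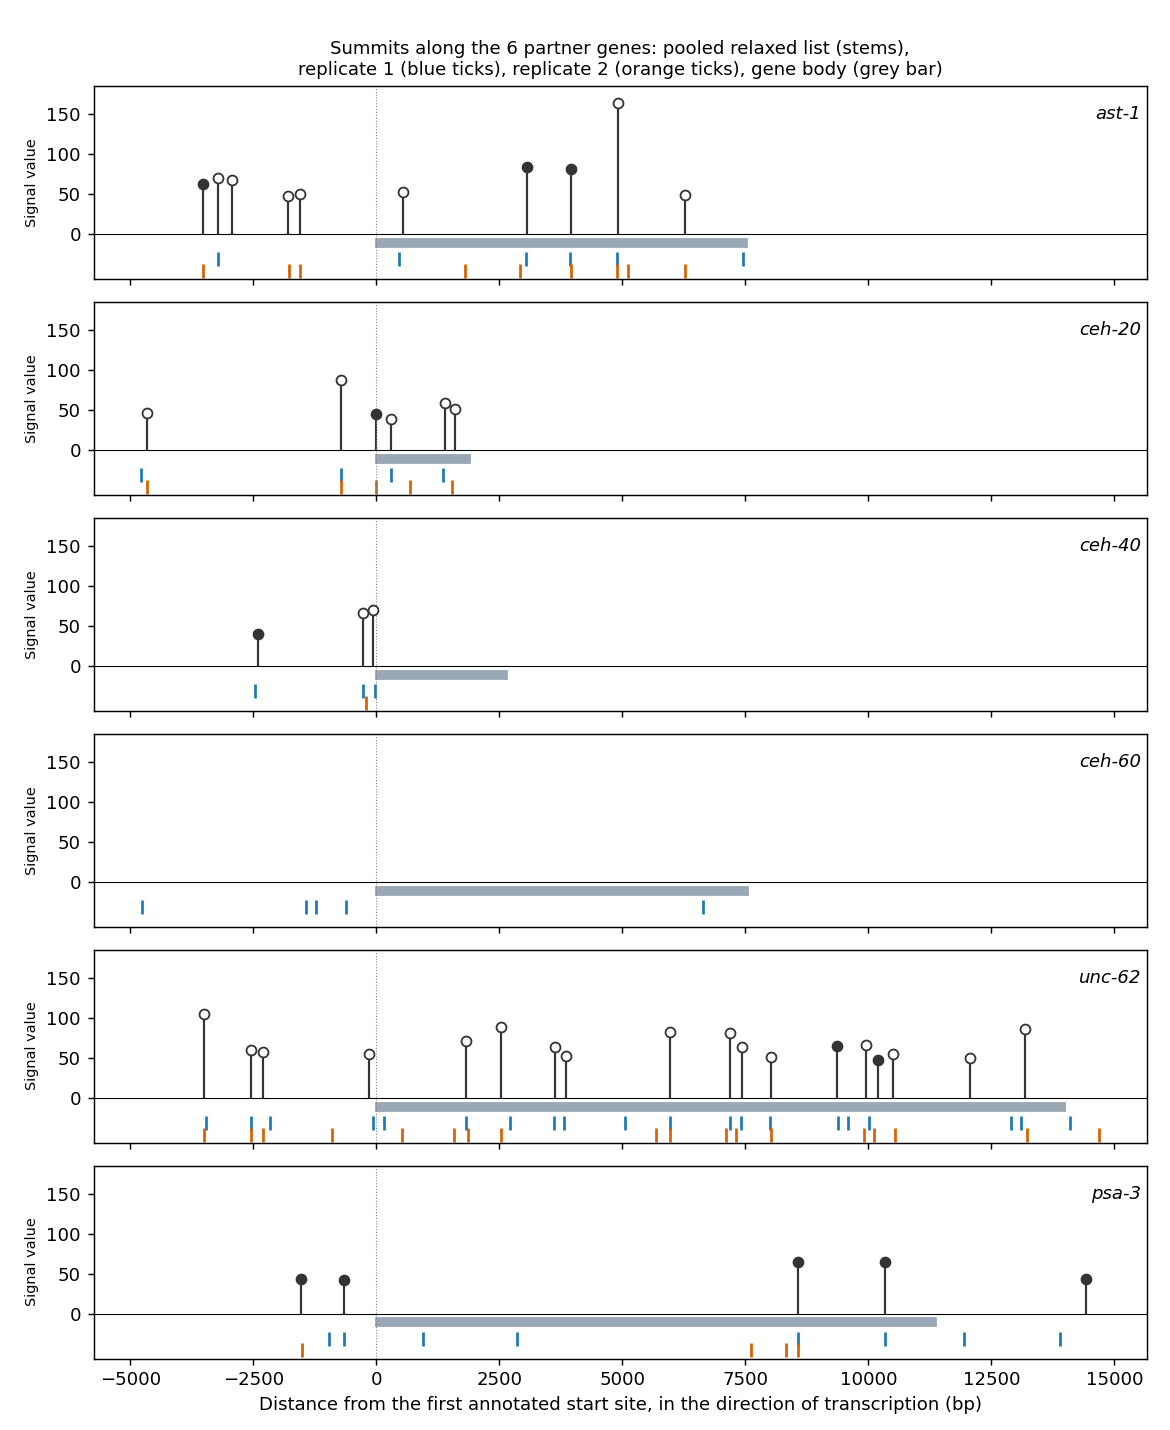
Pooled relaxed summits along each gene as stems, with height giving the authors' signal value and filled heads marking TAATTA or TAATTG within 50 bp; the x axis is the distance in bp from the first start site in the direction of transcription. The tallest stem is that of the ast-1 intron (163), unc-62 carries 18 stems along its length, and ceh-60 has none.

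Of the PBX genes, ceh-20, the worm Extradenticle orthologue and, like ast-1, known to act with CEH-43 in dopamine neurons, had a promoter-proximal summit. It lay 724 bp upstream of the ceh-20 start site (WBGene00000443, chrIII:6979884-6981785, forward strand) at chrIII:6979160, with a signal value of 87.8 and pooled rank 3782. In replicate 1 the signal value was 35.4 at rank 7352, and in replicate 2 it was 48.9 at rank 5070. Both replicates thus had it within 5 bp of the pooled summit, well below the thresholded ranks. It has no core word, and the nearest one is 708 bp away, near a weaker summit 13 bp upstream of the start site (pooled rank 22449, replicate 2 rank 20814, none in replicate 1). That was the only one of the 6 pooled ceh-20 summits with the core, and 3 of the 6 were nearest to the start site of a neighbouring gene, F31E3.2 or F31E3.6. Beyond the reach used here, the next pooled summit upstream was a thresholded one, at chrIII:6972101 with rank 604, 152 bp from the start site of rfc-4.

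The second PBX gene, ceh-40 (WBGene00000461, chrX:12318126-12320777, reverse strand), which acts redundantly with ceh-20 in embryos, had its stronger pooled summits at the promoter and at lower rank. The strongest, 72 bp upstream of the start site, had a signal value of 69.1 and pooled rank 7789, with replicate 1 at rank 13520 and no replicate 2 summit within 100 bp. The next, 283 bp upstream, had pooled rank 9055, replicate 1 rank 18278 and replicate 2 rank 6323. Replicate 2 had a single summit in reach, between these positions. The stronger site holds TGACAG, the Meis-type word, which was at this summit alone among the 42 member summits and at 3.04% of all pooled summits. The third, 2402 bp upstream at pooled rank 27419, had both the core and the PBX-type word and lay nearer the start of srd-40.

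The third PBX gene, ceh-60, is known in adults for its part, with unc-62, in the control of yolk protein genes. It had no summit in reach in the pooled list or in replicate 2 (WBGene00017690, chrX:6522596-6530146, reverse strand). Replicate 1 had 5, at ranks from 14133 to 28980 of 29979 and signal values from 18.7 to 27.4, where the list's median was 26.7 and its lowest value 18.3. All 5 had TAATTA or TAATTG within 50 bp, against 29.5% of all replicate 1 summits. They were also rich in A and T, with a median GC content of 27.7% in the 101-base window against 35.6% over that list, and 15% of positions in reach of ceh-60 have a core word in such a window against 12.4% of the nuclear genome. The nearest pooled summit to the gene lay 99 bp past its end at rank 8067, within the neighbouring gene ets-4, and had the core word.

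Of the Meis genes, unc-62, the Homothorax orthologue, had the most summits of the 6. Of its 18 pooled summits (WBGene00006796, chrV:4497461-4511449, forward strand, 15 annotated start sites), 7 lay in introns, 5 in a 5′ UTR, 4 upstream and 2 in coding exons. Several intron summits were close to an internal start site. Those at chrV:4499273 and chrV:4504642 lay 54 and 118 bp upstream of one. The strongest lay 3512 bp upstream of the first start site at chrV:4493949, with a signal value of 105 and pooled rank 2220. In replicate 1 its signal value was 46.2 at rank 3461 and in replicate 2 it was 54.3 at rank 3406, so the ranks were close. The window holds CCGGAA, the ETS-type word, near its edge and no core word. CCGGAA was at this summit alone among the 42 member summits and at 7.03% of all pooled summits.

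Inside unc-62 the replicates often ranked different positions highest. The intron summit at chrV:4499983, 187 bp downstream of an internal start site, was at rank 1476 in replicate 2. That was the highest of this gene in either replicate. Replicate 1 had no summit within 100 bp, its nearest being 193 bp away at rank 14762. In the other direction, the intron summit at chrV:4501099, 113 bp upstream of another, was at rank 2614 in replicate 1 and had no match in replicate 2. The summit at chrV:4503432 was in both, at ranks 3070 and 15019. Of the 18, 8 were in both replicates, 5 in replicate 1 alone, 4 in replicate 2 alone and 1 in neither. Only 2 had the core word, the better at chrV:4506821 with pooled rank 9343 and replicate 1 rank 2654. Neither was in both replicates: the better had no match in replicate 2, and the other none in replicate 1. The locus holds the word rarely, at 8.57% of positions in reach against 12.4% of the nuclear genome, and the summit windows had a median GC content of 46.5% against 37.6% over the pooled list.

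The other Meis gene, psa-3 (WBGene00009560, chrX:15407931-15419298, forward strand), is known from a Wnt-dependent asymmetric division in the tail of the larva, where NOB-1 and CEH-20 act on it. Its 5 pooled summits were low-ranked and all held the core word. The strongest pooled summits, at chrX:15418260 (signal value 64.9, rank 9285) and chrX:15416505 (64.6, rank 9386), lie in introns. Their nearest psa-3 start sites are 710 and 1045 bp away. The former was at rank 6393 in replicate 1 and was not found in replicate 2, and the latter was at ranks 6096 and 18195. The remaining 3 had pooled ranks from 23986 to 25557. All 5 had TAATTA or TAATTG within 50 bp, against 25.7% of all pooled summits. So did 5 of 8 psa-3 summits in replicate 1 (29.5% of that list) and 3 of 4 in replicate 2 (20.4%). The median GC content of the 5 windows was 28.7%, against 37.6% over the pooled list. In reach of psa-3, 15.6% of positions have the word in such a window, above the share of the nuclear genome. Of these 5 summits, 3 were nearest to a psa-3 start site.

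Over the 6 genes together, the core word was at 12 of 42 pooled summits (28.6%), against 25.7% of the 30000. It was at 15 of 46 replicate 1 summits (32.6%, against 29.5% of all in that list). In replicate 2 it was at 10 of 37 (27.0%, against 20.4% of all in that list). In windows centred 500 bp from the member summits, 7 of 84 had it (8.33%), and over the pooled list 10.8% did. The pooled shares and that of replicate 1 are near those of their lists. The replicate 2 share is above that of its list, on 37 summits, a difference that was not tested. By rank, the ast-1 summit was the 1 member summit at ranks 1 to 998, without the word, where 32.6% of all summits had it. The unc-62 summit was the 1 at ranks 999 to 3000, also without it, against 38.0% of all. Of the 16 at ranks 3001 to 10000, 5 had it (30.6% of all), of the 15 at 10001 to 20000, 1 (23.5%), and of the 9 at 20001 to 30000, 6 (21.4%). A single summit in each of the upper groups gives no share to compare. The 6 in the lowest group are at ceh-20, ceh-40, unc-62 and psa-3, and none of the 9 was found in both replicates.

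Words of the partner classes were at few member summits, and these small counts gave shares on either side of the list's own. TGATNNAT was at 4 of 42 pooled summits, 1 each at ast-1, ceh-40, unc-62 and psa-3, a share above the 6.34% of all. At 3 of these, ast-1, ceh-40 and psa-3, the core word was also present, again above the 2.04% of all pooled summits with both. At psa-3 the words begin 2 bp apart and overlap. The highest of the 3 was the ast-1 summit, at pooled rank 4935. Those at ceh-40 and psa-3 were at pooled ranks 27419 and 25557 of 30000, and neither was found in both replicates.

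**Figure D3:**
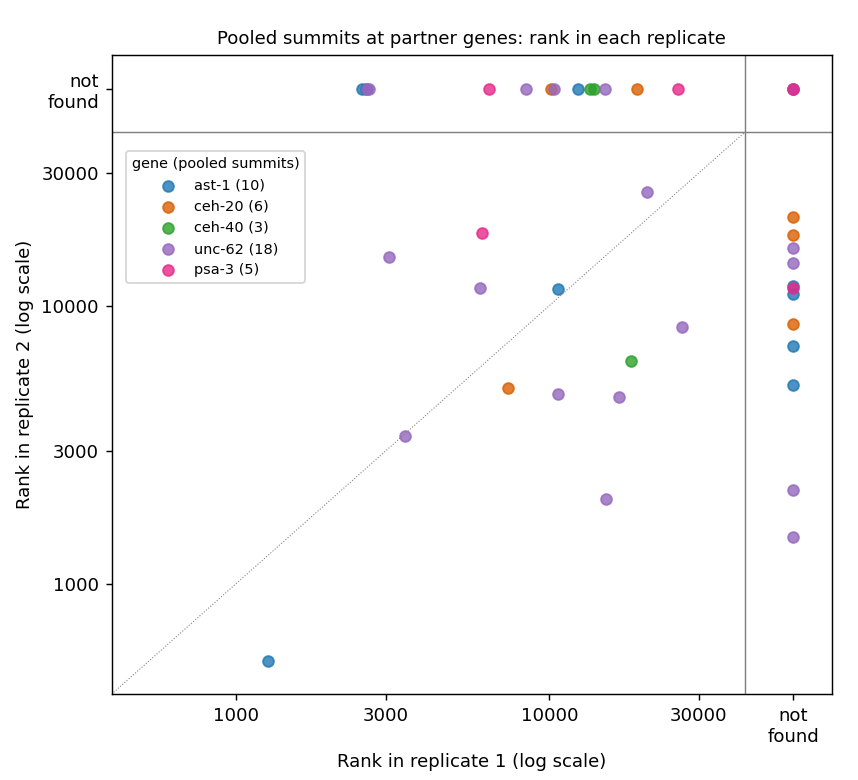
Rank in replicate 1 (x axis) and replicate 2 (y axis, both log scale) of each pooled summit in reach of ast-1, ceh-20, ceh-40, unc-62 and psa-3, coloured by gene, with summits lacking a match within 100 bp drawn in the outer strips. Of the 42 summits 13 have a rank in both, and the ast-1 repeat site (1262 and 528) is the lowest point on the left.

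The replicates matched for 13 of the 42 pooled member summits, against 29.7% of all pooled summits. Replicate 1 had a summit within 100 bp of 27 of them, replicate 2 of 25, and 3 had neither. By rank the matched share followed that of the list. The 1 member summit at ranks 1 to 998 was in both replicates (94.7% of all there), as was the 1 at ranks 999 to 3000 (82.6%). So were 9 of 16 at ranks 3001 to 10000 (57.5%), 2 of 15 at 10001 to 20000 (20.7%) and none of 9 below (2.24%). No member summit lay within 100 bp of a tRNA gene, the nearest being 14759 bp away.

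**Figure D4:**
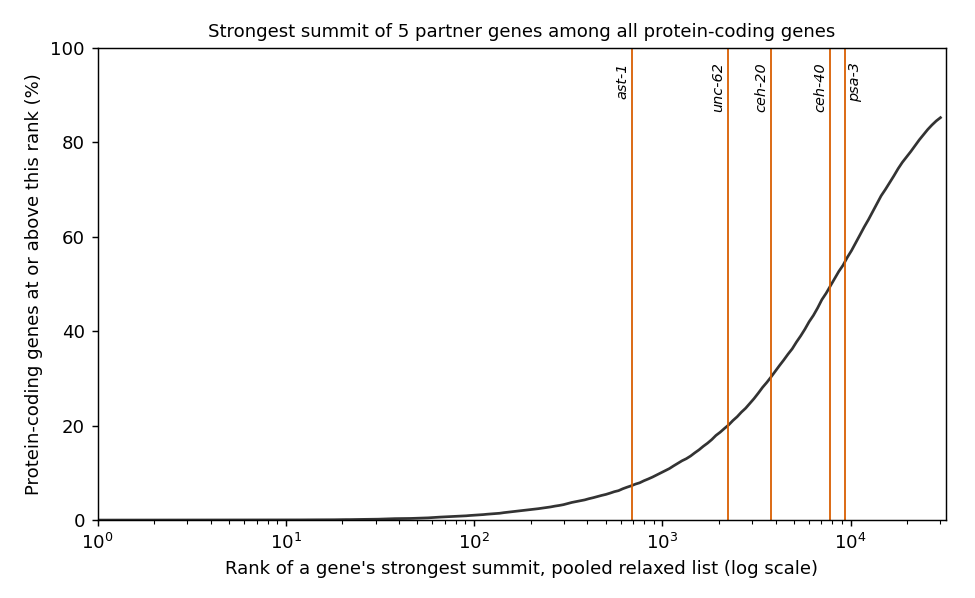
Share of all 19985 protein-coding genes (y axis, percent) whose strongest pooled summit in reach has at most the rank on the x axis (log scale), with vertical lines at the ranks of 5 members. The curve is at 7.36% at ast-1 and at 54.6% at psa-3, and ceh-60, with no pooled summit, has no line. The ast-1 line is at the rank of its summit at the GT run.

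Among all protein-coding genes, the members' places were spread widely. By the rank of the strongest pooled summit, 7.36% of genes stood before ast-1, 3991 of the 19985 before unc-62, 30.3% before ceh-20, 49.5% before ceh-40 and 54.6% before psa-3, and ceh-60 was among the genes with none. In replicate 1 alone the order was ast-1 (12.4% before it), unc-62 (23.2%), psa-3 (43%), ceh-20 (48.2%), ceh-40 (67.4%) and ceh-60 (69.0%). In replicate 2 it was ast-1 (5.86%), unc-62 (13.5%), ceh-20 (37.4%), ceh-40 (43.5%) and psa-3 (62.9%). So ast-1 and unc-62 led in both replicates, and the order of ceh-20, ceh-40 and psa-3 was not the same in both. The place of ast-1 in each list was that of a summit at the GT run. Away from the run, its best pooled rank was 4404, behind unc-62 (2220) and ceh-20 (3782). In replicate 1 its best was then 2514, before unc-62 (2614), and in replicate 2 it was 3617, behind unc-62 (1476). Longer genes offer more room for summits. Per kb in reach, unc-62 had 0.912 pooled summits, ast-1 0.799, ceh-20 0.6, ceh-40 0.3, psa-3 0.255 and ceh-60 0, with a median of 0.289 over all genes. The genes nearest to ast-1 in the ranks of their best summits over the 2 replicates were ain-1 (1273 and 523) and F52C9.5 (1211 and 522), by the distance of log2 ranks among 15934 genes.

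Some genes related by class or pathway ranked above every member, though most of those compared did not. Of all protein-coding genes, 10.2% had a thresholded summit by the same rule. Of 8 other ETS genes matched by symbol, ets-5, which acts in the BAG sensory neurons, had a thresholded summit, 1151 bp upstream of its start site. Its signal value was 532 and its pooled rank 52, with ranks of 67 and 42 in replicates 1 and 2, above every member in both, and it had no core word. None of the 6 Hox genes, whose products pair with PBX proteins, had a thresholded summit, and 2 of 6 had a summit among the strongest 3000 (25.3% of all genes). These were lin-39, at pooled rank 1963, and ceh-13, at 2218, and the core word was at both summits. The Iroquois gene irx-1, of another TALE homeobox class, had no thresholded summit, and its best, at pooled rank 3483, also had the core word. These 3 genes are named after their values were seen. Of 5 dopamine pathway genes, cat-1, the vesicular monoamine transporter, had 2 thresholded summits and cat-2, tyrosine hydroxylase, 1. The best pooled ranks were 126 for cat-1 and 201 for cat-2, and none of these 3 summits had the core word. The median best pooled rank was 11326 over the 7 other ETS genes with a pooled summit. It was 6454.5 over the Hox genes and 5216 over the dopamine pathway genes.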

How the data were processed

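Per the labels, ChIP-seq for tagged CEH-43 was done on 2 biological replicates. The authors deposited 4 narrowPeak lists on ce11, each with a signal value per peak and a −log10 q-value as deposited, which was not used for ranking. Per the text files deposited with them, each replicate has a relaxed list made from its own and 1 control alignment, a pooled relaxed list uses both replicates, and the thresholded list (998 peaks) is what an irreproducible discovery rate step kept. Aligner, peak caller and cutoff are not stated in the sources used here.

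Summits were ranked by signal value within each list, and coordinates are 1-based. Genes came from Ensembl release 115 and sequence from RefSeq, both WBcel235. A summit in another list within 100 bp was a match. Words were searched with Python 3.11.15 (numpy 2.4.6, pandas 2.3.3), with functions tested on simulated data. Of 21 genes written for comparison, 20 matched by symbol. The rule for named genes was all 6 members, comparison genes with a thresholded summit, the 2 genes most like a member that had one, and the genes whose start lay nearest to a summit or whose body held it. The members and lists were chosen with earlier results of these data known. Intervals are not given, since read depth is unknown.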

Additional observations from a re-analysis of the deposited data

How the results depend on the processing

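Over 39 alternatives, 22 counts were within 1.5 times the reported one. Some of these could not have moved. The reported count of thresholded member summits with the core word was 0, so a narrower window or TAATTA alone had to give 0. The same holds for settings that left no member summit in the list. The finding of 1 member, and of 1 summit, in the thresholded list moved most. It was 2 members and 2 summits with a reach of 10000 bp, the addition being the summit near rfc-4 taken for ceh-20, and 2 and 2 (ast-1 and unc-62) among the strongest 3000 pooled summits. It was 0 and 0 in the stronger 499 thresholded summits, and 0 and 0 without summits at GT runs, an alternative chosen after seeing the data. Leaving out a replicate gave 0 to 1 members and 0 to 2 summits, with 0 to 1 of these holding the core word. Among pooled summits, 12 with the core word became 6 within 25 bp, 3 with TAATTA alone and 27 with TAAT, and 13 found in both replicates became 21 within 200 bp and 26 by any overlap of intervals. No paired analysis was possible because the study has 1 group. Read depth is unknown, so an absent summit does not show absent binding.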
